A study of Mus musculus with 9 samples.

Results

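The ubiquitin-specific protease (USP) genes were taken as every protein-coding gene of the RefSeq annotation of mm10 (GRCm38) whose symbol is Usp followed by a number and at most 1 letter. This gave 50 genes of 21900. The study compared m6A, N6-methyladenosine in RNA, between mouse embryonic stem cells (mESCs) lacking Mettl3, the catalytic subunit of the methyltransferase, or Zc3h13, another component, and wild-type mESCs. It comprised 9 libraries, namely 2 immunoprecipitations and 1 input from each of Mettl3KO, Zc3h13KO and WT cells, all carrying the Rosa26:CRE, Bir ligase background and cultured with LIF. The Zc3h13 knockout lines were clones made by genome editing. Values here come from the lists of peaks of the 2 WT immunoprecipitations, in which an antibody against m6A enriched fragments of oligo-dT-selected mRNA, so no knockout is compared with WT, and the 7 remaining libraries were not analysed here.

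Replicate 1 held 22531 peaks and replicate 2 held 5040, and because the lists carry no read counts, sequencing depth is unknown. The names of the peaks in replicate 1 carry a sample name other than wild type, whose meaning no source used here gives, so the replicates follow the sample labels. Nothing in the labels says whether the replicates came from separate cultures. The labelled cell type could not be checked, since a peak list gives no expression level. Of 8 stem cell markers, 5 had a peak in replicate 1 (Sox2, Nanog, Zfp42, Klf4 and Esrrb), beside 41.3% of all protein-coding genes, and 0 had one in replicate 2, beside 16.9%, with none listed for Pou5f1, Tdgf1 or Dppa5a. For the same reason a gene without a peak may be unmethylated, not expressed or below the limit of detection, and these cannot be told apart here.

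USPs form the largest family of deubiquitinases, the proteases that take ubiquitin off proteins. USPs are cysteine proteases that also trim ubiquitin chains and so can spare a protein from the proteasome or end a signal. Members differ in what they bind and where they act, from histones at chromatin to receptors at the membrane, and a few lack the activity or act on another modifier. m6A is placed on mRNA by the Mettl3 and Mettl14 complex, most often in a context whose core is GGAC, and is known to be dense near stop codons, in long internal exons and in 3′ untranslated regions.

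Sequence is shown for the USP genes whose promoter window had a peak over it, since m6A can also lie close to the start of a transcript. RefSeq windows of GRCm38.p6, running from 250 bases before the start site to 50 bases from it, were matched by gene ID for 38 of the 50 genes. A peak of replicate 1 overlapped 2 of these 38 windows, at Usp38 and Usp27x, and a peak of replicate 2 overlapped 1, at Usp38. Over all 32851 windows the share was 6.51% in replicate 1 and 0.88% in replicate 2. Both windows lie on the minus strand, that of Usp38 at chr8:81014857-81015156 with the start site at 81014906, and that of Usp27x at chrX:7375781-7376080 with the start site at 7375830. They are printed 5′ to 3′ on the strand of the transcript, with the 50 transcribed bases in capitals.
Usp38: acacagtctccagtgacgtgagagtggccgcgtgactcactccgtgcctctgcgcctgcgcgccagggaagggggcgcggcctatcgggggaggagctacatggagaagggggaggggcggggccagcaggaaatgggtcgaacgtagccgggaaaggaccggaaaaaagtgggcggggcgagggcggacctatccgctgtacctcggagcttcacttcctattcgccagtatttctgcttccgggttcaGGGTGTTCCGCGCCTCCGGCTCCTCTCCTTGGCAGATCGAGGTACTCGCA
Usp27x: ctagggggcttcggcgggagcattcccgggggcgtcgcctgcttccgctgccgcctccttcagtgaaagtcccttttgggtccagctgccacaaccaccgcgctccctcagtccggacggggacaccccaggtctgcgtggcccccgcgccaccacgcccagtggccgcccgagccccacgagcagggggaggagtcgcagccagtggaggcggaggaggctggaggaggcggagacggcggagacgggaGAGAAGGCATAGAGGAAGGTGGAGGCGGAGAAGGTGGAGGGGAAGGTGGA
The letters GGAC were searched on both strands of the windows. On the transcript strand they begin at -94 and -64 in Usp38 and at -136 and -130 in Usp27x, counted from the start site, and 0 copies lie in the capitals of either window. The other strand held 0 copies in the window of Usp38 and 3 in that of Usp27x. Of the 38 USP windows, 29 held GGAC on the transcript strand and 4 held it in the transcribed bases. Of all windows, 65.6% held it on the transcript strand, 18.9% in the transcribed bases and 87.7% on either strand. At Usp38, which encodes a deubiquitinase reported in the nucleus, a peak spanned 81013883 to 81015056 in replicate 1 and 81014589 to 81014988 in replicate 2. They reached 150 and 82 bases before the start site, with summits 816 and 106 bp after it, so both lay mainly on the transcribed side. Usp27x, an intronless gene whose product works in a histone H2B deubiquitinase module, had a single peak of replicate 1 from 7373422 to 7376127. At 2706 bp it was the widest of the USP peaks, spanned the whole window and most of the 3240 bp gene, and also lay within 500 bp of the long noncoding RNA gene Gm14379 on the opposite strand. Since the peaks carry no strand, signal from Usp27x and Gm14379 there cannot be told apart.

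To ask how often USP transcripts were m6A targets, peaks were assigned to each gene body with a margin of 500 bp, and a gene with a peak in both replicates was taken as a target, as the study defines it. Of the 50 USP genes, 34 (68%) had a peak in replicate 1, beside 41.3% of all protein-coding genes. In replicate 2, 16 (32%) had a peak, beside 16.9%. The same 16 genes had one in both replicates (32%), beside 16.1%, and in all 16 at least 1 peak of replicate 1 overlapped a peak of replicate 2, beside 15.6%. That last count was 8 of the 50 USP genes, beside 9.99% of all protein-coding genes, for peaks at least 4-fold enriched. It was 9 of the 50, beside 9.85%, when the list of replicate 1 was shortened to 5040 peaks by −log10 q. No USP gene had a peak in replicate 2 only, 18 had one in replicate 1 only and 16 had none. Of all 21900 protein-coding genes, 9038 had a peak in replicate 1, 3704 in replicate 2 and 3531 in both. A peak in replicate 2 only was thus rare among all genes as well. In each list the share of USP genes was thus above that of all protein-coding genes, a difference that was not tested.

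**Figure D1:**
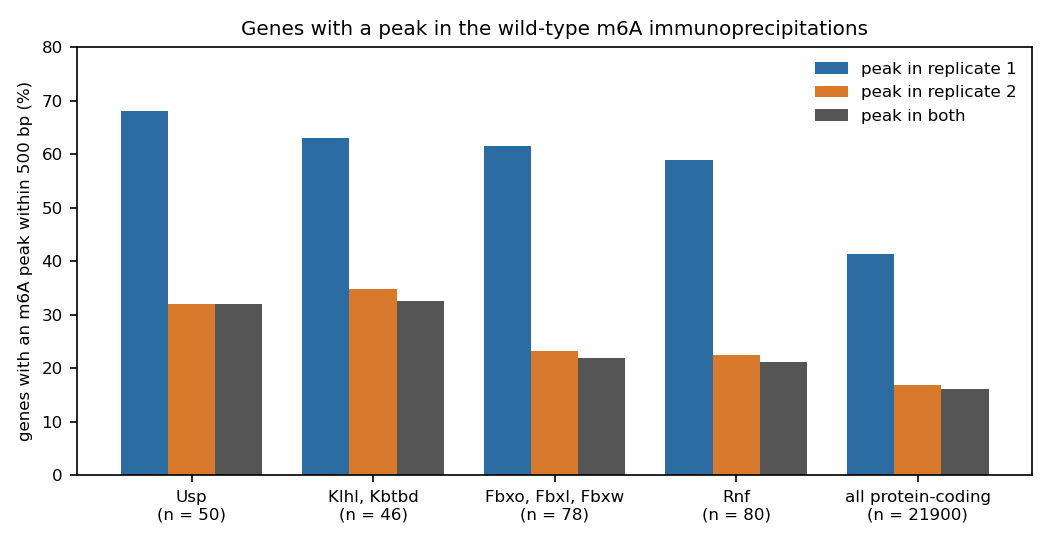
Percentage of genes (vertical axis) with a peak within 500 bp in replicate 1, in replicate 2 and in both, for the Usp genes, the Klhl and Kbtbd, F-box and Rnf gene families and all protein-coding genes, with the number of genes under each group of bars. The share in both replicates was 32% for Usp genes, 32.6% for Klhl and Kbtbd genes, 21.8% for F-box genes, 21.2% for Rnf genes and 16.1% for all protein-coding genes.

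The median height of the USP peaks lay below that of all genes in each list as deposited, which was not tested. Fold enrichment is the ratio of immunoprecipitation over input at the summit as MACS2 gives it. The median of each gene's highest fold enrichment was 5.23 for the 34 USP genes with a peak in replicate 1, beside 6.45 for all protein-coding genes with a peak. With that shortened list of replicate 1, the direction turned, at 8.15 for 18 USP genes, beside 7.61. In replicate 2 it was 6.23 for the 16 USP genes, beside 6.71. Over single peaks, the 85 USP peaks of replicate 1 ranged from 1.5 to 16.1 with a median of 3.58, beside 5.39 for the whole list, and the 21 of replicate 2 ranged from 3.74 to 17.8 with a median of 6.09, beside 6.35. USP genes with a peak had a median of 2 peaks in replicate 1 and 1 in replicate 2, the same medians as all protein-coding genes with a peak.

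**Figure D2:**
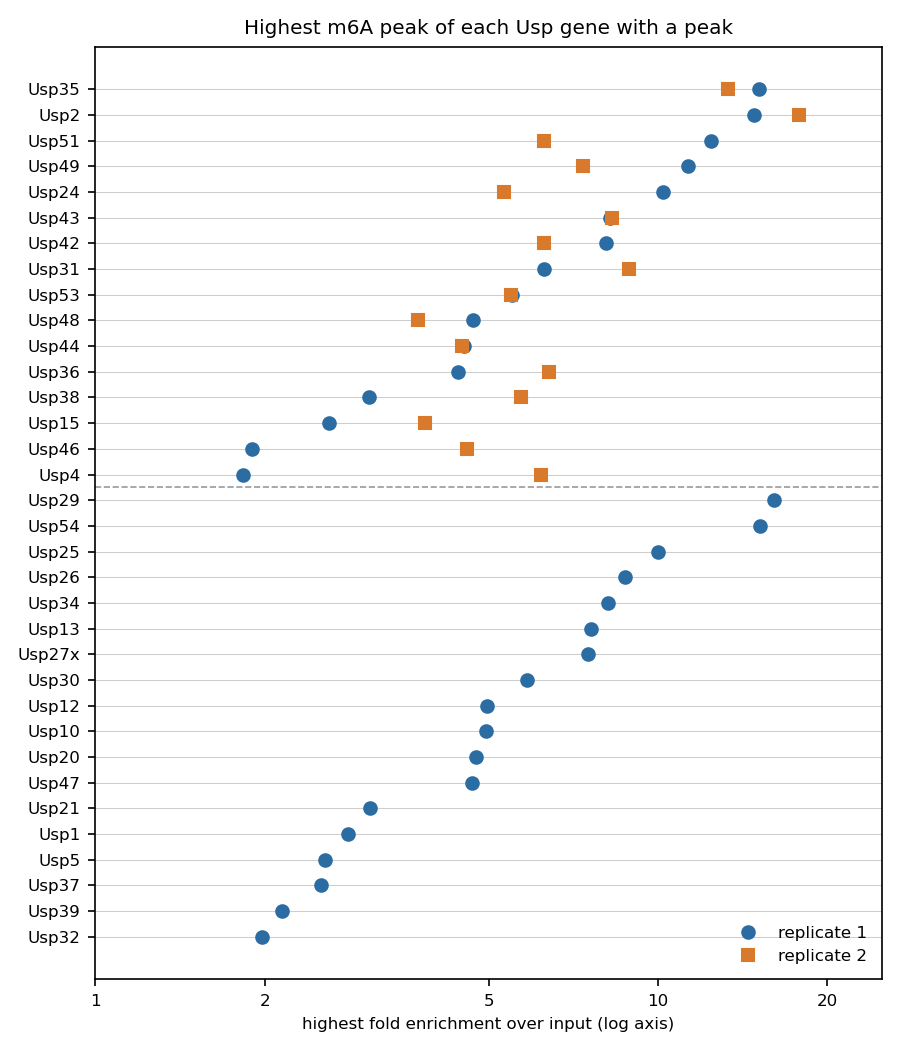
Highest fold enrichment over input (horizontal log axis, without unit) of the 34 Usp genes with a peak, 1 gene per row, with circles for replicate 1 and squares for replicate 2. The 16 genes above the dashed line had a peak in both replicates, where Usp2 and Usp35 stood highest in each, and the 18 below it had a peak in replicate 1 only, led by Usp29 at 16.1 and Usp54 at 15.2.

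The 12 USP genes with the highest enrichment in both replicates, ranked by the lower of their highest values, were Usp2, Usp35, Usp43, Usp49, Usp51, Usp31, Usp42, Usp53, Usp24, Usp44, Usp36 and Usp48. The highest values of a gene in the replicates need not lie at the same site. At Usp48 the highest peak of replicate 1 was not the shared one, which was 1.66-fold enriched. The 12 genes are given by role, with their peaks, each with its fold enrichment (as n-fold) and its −log10 q, the strength of the peak call.

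Among them, 4 of the 13 USP genes listed for chromatin and DNA repair encode proteins that remove ubiquitin from histones or hold the mitotic checkpoint. Usp51 acts on histones H2A and H2B. Its gene (chromosome X, 153006469 to 153011364, plus strand) is only 4896 bp long, and 2 of its 3 peaks in replicate 1 had a partner in replicate 2. The first ran from 153007189 to 153007959 in replicate 1 (12.4-fold, −log10 q 78), and from 153007565 to 153007901 in replicate 2 (6.28-fold, −log10 q 6.43). The second ran from 153008666 to 153009353 (3.43-fold, −log10 q 22.1) in replicate 1 and from 153008763 to 153009168 (5.67-fold, −log10 q 4.88) in replicate 2. The last, from 153010928 to 153011291 (5.74-fold, −log10 q 34), was listed in replicate 1 only and had its summit 238 bp from the end of the gene. The shared sites of Usp51 lay farther from the end, with summits of replicate 1 at 3642 and 2520 bp from it.

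Usp49, known in human cells as a histone H2B deubiquitinase, had the most peaks of any USP gene in each list, 7 in replicate 1 and 3 in replicate 2 (chromosome 17, 47630690 to 47686739, plus strand). The highest in replicate 1, from 47671913 to 47672601, was 11.3-fold enriched at a −log10 q of 143, and its partner in replicate 2, from 47671969 to 47672358, was 6.09-fold enriched at 7.61. A second shared site ran from 47680553 to 47681484 (3.39-fold, −log10 q 23.1) in replicate 1 and from 47680587 to 47681027 (5.75-fold, −log10 q 4.41) in replicate 2. The highest peak of replicate 2, from 47673012 to 47673363 (7.36-fold, −log10 q 7.63), overlapped none of replicate 1, the only USP peak of replicate 2 of which this was true. The 5 remaining peaks of replicate 1 ran from 47649916 to 47650235 (3.58-fold, −log10 q 10.7), from 47674494 to 47674801 (5.01-fold, −log10 q 25), from 47681643 to 47682010 (3.13-fold, −log10 q 16.2), from 47683080 to 47683535 (3.37-fold, −log10 q 24.3) and from 47684166 to 47684475 (2.97-fold, −log10 q 19.9). Every one of these peaks also lay in Gm20517, a protein-coding gene annotated from 47611585 to 47686739 on the same strand, so the transcript that carried them cannot be told apart.

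Usp44, a brake on the anaphase-promoting complex that also acts on histone H2B, lies on chromosome 10 from 93819969 to 93859425. Its shared site ran from 93845408 to 93846256 in replicate 1 (2.71-fold, −log10 q 45.3), and from 93845520 to 93846080 in replicate 2 (4.48-fold, −log10 q 4.42). A stronger peak of replicate 1 followed directly, from 93846320 to 93847113 (4.53-fold, −log10 q 119), and had no partner in replicate 2. Usp48, a nuclear deubiquitinase that acts on histone H2A, lies on chromosome 4 from 137594120 to 137658537 on the plus strand. The shared site of Usp48 ran from 137655970 to 137656883 (1.66-fold, −log10 q 18.7) in replicate 1 and from 137656114 to 137656878 (3.74-fold, −log10 q 5.68) in replicate 2, with summits 1770 and 2147 bp from the end of the gene. A second peak of replicate 1 lay just before the gene, from 137593580 to 137593902 (4.7-fold, −log10 q 6.37), with its summit 474 bp ahead of the annotated start site.

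Another 4 belong to the 18 USP genes listed for signalling, trafficking and the cytoskeleton. Usp2, a deubiquitinase of Mdm2 and cyclin D1 under circadian control, ranked first among the USP genes (chromosome 9, 44067021 to 44095627, plus strand). Its shared site ran from 44075128 to 44076221 in replicate 1 (14.8-fold, −log10 q 216), and from 44075151 to 44076153 in replicate 2 (17.8-fold, −log10 q 30.5). Those values of replicate 2 were the highest of any USP peak in that list. The summits lay 9040 and 9508 bp ahead of the start site that RefSeq's promoter window gives for Usp2 (44084920), yet inside its annotated gene body, and also inside Gm39325, a long noncoding RNA gene on the minus strand from 44066325 to 44084990. Replicate 1 had 4 further peaks, from 44066891 to 44067188 (5.19-fold, −log10 q 6.28), from 44092896 to 44093197 (4.48-fold, −log10 q 15.5), from 44093602 to 44094171 (9.18-fold, −log10 q 85.4) and from 44094381 to 44094714 (3.17-fold, −log10 q 14.5). The first of these also lay at Gm39325, whereas the last 3 lay within 2482 bp of the end of Usp2 with no other gene nearby and had no partner in replicate 2. The site found in both replicates is therefore the one at which Usp2 and the noncoding RNA cannot be told apart.

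Usp43 (chromosome 11, 67854523 to 67922153) had its shared site at the lower end of the gene, from 67855428 to 67856711 in replicate 1 and from 67855509 to 67856625 in replicate 2. The fold enrichment was 8.23 and 8.3, the closest match between replicates among the sites above a value of 6, with −log10 q values of 84.4 and 9.14. A further peak of replicate 1 ran from 67879854 to 67880161 (6.45-fold, −log10 q 15.3). Usp31, reported in human cells as a regulator of NF-κB signalling, lies on chromosome 7 from 121642021 to 121707461 on the minus strand. Its shared site ran from 121642667 to 121643000 (3.45-fold, −log10 q 34) in replicate 1 and from 121642620 to 121642995 (8.87-fold, −log10 q 10.1) in replicate 2, with summits 768 and 764 bp from the end of the gene. The strongest peak of replicate 1 at Usp31, from 121648183 to 121649860 (6.28-fold, −log10 q 148), and one beside it from 121647603 to 121648032 (2.86-fold, −log10 q 31.8) had no partner in replicate 2. Usp24, a large deubiquitinase reported to act on p53 and on Ddb2, lies on chromosome 4 from 106315980 to 106446613 on the plus strand. The gene is 130634 bp long, and its shared site ran from 106440698 to 106441131 (3.61-fold, −log10 q 89.1) in replicate 1 and from 106440785 to 106441088 (5.32-fold, −log10 q 8.88) in replicate 2, with summits 5680 and 5658 bp from the end. Another peak of replicate 1 at Usp24 ran from 106438653 to 106438962 (2.05-fold, −log10 q 23.4).

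Of the 8 USP genes listed for the cell cycle, nucleolus and nucleus, the paralogs Usp42, a deubiquitinase of p53, and Usp36, which acts in the nucleolus, were among the 12. Usp42 (chromosome 5, 143710325 to 143759753) had the highest −log10 q of any USP peak in replicate 1, 220, at a peak from 143710712 to 143711450 with a fold enrichment of 8.07. Its partner in replicate 2 ran from 143710885 to 143711398 (6.27-fold, −log10 q 12.8), with summits 1 bp apart. The peak of replicate 1 also came within 500 bp of the neighbouring gene Cyth3, while that of replicate 2 did not. Further peaks of replicate 1 ran from 143715405 to 143716218 (2.83-fold, −log10 q 51.7) and from 143716824 to 143717430 (2.15-fold, −log10 q 16.6). Usp36 (chromosome 11, 118259651 to 118290260, minus strand) had 2 shared sites. One ran from 118260616 to 118261667 (2.55-fold, −log10 q 59.4) in replicate 1 and from 118260633 to 118261637 (6.41-fold, −log10 q 13.6) in replicate 2, and the other from 118264872 to 118265446 (4.42-fold, −log10 q 125) in replicate 1 and from 118264891 to 118265403 (6.21-fold, −log10 q 12.8) in replicate 2. Their summits coincided within 2 bp and 0 bp, at 1643 and 5538 bp from the end of the gene, and another peak of replicate 1 ran from 118268687 to 118269362 (2.23-fold, −log10 q 40.7). Both paralogs thus had a site within 2000 bp of one end of the gene in each replicate.

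Usp35, reported in human cells to slow the removal of damaged mitochondria, was the 1 target among the 7 USP genes listed for the proteasome, free ubiquitin, mitochondria and the endoplasmic reticulum (chromosome 7, 97309403 to 97332308, minus strand). Its shared site ran from 97311364 to 97312616 in replicate 1 (15.1-fold, −log10 q 146), and from 97311473 to 97312510 in replicate 2 (13.3-fold, −log10 q 18.7). Usp35 and Usp2 were the only USP genes above 10 in both replicates. Weaker peaks of replicate 1 lay on either side, from 97309681 to 97310644 (2.7-fold, −log10 q 8) and from 97313104 to 97313402 (5.43-fold, −log10 q 12.4). Usp53, a tight junction protein needed for hearing in the mouse and long described as lacking protease activity, lies on chromosome 3 from 122931486 to 122984900. Its shared site had almost the same fold enrichment in both replicates, 5.51 (−log10 q 102) from 122933702 to 122934818 in replicate 1 and 5.48 (−log10 q 6.45) from 122934201 to 122934766 in replicate 2. A second peak of Usp53 in replicate 1 ran from 122968706 to 122969327 (3.74-fold, −log10 q 16.8).

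The other 4 targets had lower highest values in replicate 1, although none of their shared sites there was below that of Usp48, at 1.66. Usp38 had 2 peaks in each replicate, the one at the start site described above and one from 80984648 to 80985965, with a highest enrichment of 3.07-fold in replicate 1 and 5.7-fold in replicate 2. Usp15 and Usp4, paralogs that act on TGF-β signalling, had 2 and 1 peaks in replicate 1, with highest values of 2.6 and 1.83, and 1 peak each in replicate 2, with 3.85 and 6.2. Usp46, which acts with the WD40 protein Wdr48, had 1 peak in each, with 1.9 in replicate 1 and 4.57 in replicate 2. Of these 4 genes only Usp38 had a highest value above 3 in replicate 1, whereas no USP peak of replicate 2 was below 3.74. The 4 ranked last by the lower of their highest values, so low values in replicate 1 are part of the ranking.

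**Figure D3:**
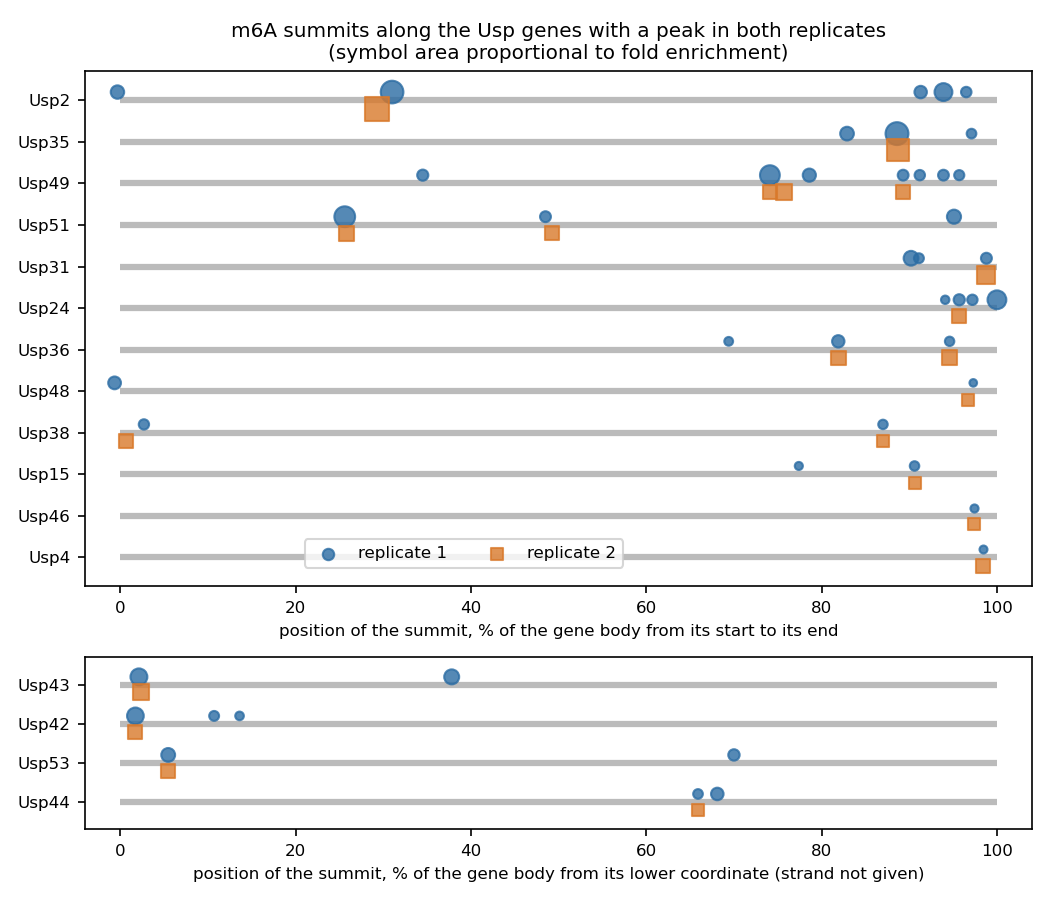
Position of every m6A summit in the 16 Usp genes with a peak in both replicates, as a percentage of the gene body (horizontal axis), 1 gene per row, with circles for replicate 1, squares for replicate 2 and symbol area proportional to fold enrichment. The upper panel runs from the start to the end of the 12 genes with a known strand, where most shared sites lie towards the end and those of Usp2 and Usp51 and 1 of the 2 of Usp38 do not, and the lower panel runs from the lower coordinate of 4 genes whose strand was not given.

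To ask whether both replicates placed the modification at the same position, summits were compared at the 20 shared sites of these 16 genes. The median distance between summits was 5.5 bp, with 13 of 20 (65%) within 10 bp, beside a median of 10 bp and 51.4% for all 4684 overlapping pairs of peaks in the lists. Within 50 bp the share was 80%, beside 73.1%, and within 100 bp it was 80%, beside 80.3%. Usp36 and Usp46 each had a site whose summits fell on the same base. The exceptions were the start-site peak of Usp38, at 710 bp, and the sites of Usp2 at 468 bp, Usp48 at 377 bp and Usp43 at 189 bp. Among the USP peaks of replicate 2, 20 of 21 (95.2%) had a partner in replicate 1, beside 92.1% of that list, and among those of replicate 1, 20 of 85 (23.5%) had one in replicate 2, beside 19.1%. In 12 of the 16 genes the highest peak of replicate 1 was itself a shared site, and in Usp24, Usp31, Usp44 and Usp48 it was not.

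Fold enrichment at the shared sites was higher in replicate 2 at 15 of 20 (75%), beside 51.1% of all overlapping pairs. At these sites it ranged from 3.74 to 17.8 with a median of 5.92 in replicate 2, and from 1.66 to 15.1 with a median of 3.44 in replicate 1. The ratio of replicate 2 over replicate 1 had a median of 1.57 and ranged from 0.508 at Usp51 to 3.4 at Usp4, beside a median of 1.02 for all pairs. Every one of the 7 USP sites below 3 in replicate 1 was higher in replicate 2. The same was true of 95.3% of the 766 such pairs in the lists. At the USP sites it could not come out otherwise, since no USP peak of replicate 2 was below 3.74. These 7 sites are part of the 15 of 20 and enter the median ratio. Of the 13 USP sites at 3 or more, 8 were higher in replicate 2, beside 42.4% of such pairs. These values come from separate calls and were not adjusted for depth, so the ratio is a description of the lists.

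**Figure D4:**
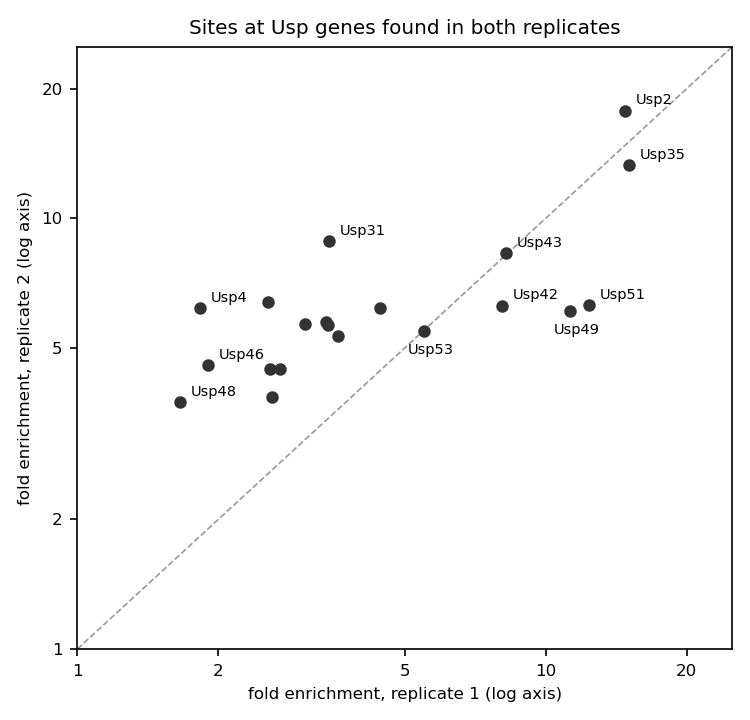
Fold enrichment in replicate 2 (vertical log axis) against replicate 1 (horizontal log axis) at the 20 sites of Usp genes found in both replicates, 1 point per site, with the dashed line marking equal values. At 15 of 20 sites the point lies above the line, and the points of Usp35, Usp42, Usp53 and the highest sites of Usp49 and Usp51 lie on or below it.

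Replicate 1 alone had peaks at 18 USP genes. Their highest −log10 q had a median of 47, beside 95.5 for the 16 targets in the same list, and their highest fold enrichment a median of 4.95, beside 5.89, with ranges that overlapped. The highest values belonged to Usp29, an imprinted gene of the Peg3 domain (4 peaks, highest fold enrichment 16.1), and Usp54, the paralog of Usp53 (6 peaks, 15.2). Of the 4 peaks of Usp29, the 3 near its end also lay at Zim3, and 4 of the 6 of Usp54 at the noncoding RNA gene 1810062O18Rik. The summit of the 15.2-fold peak of Usp54 lay 22951 bp ahead of the start site that its promoter window gives, yet inside its annotated gene body. Usp25 (1 peak, 10), Usp26 (1 peak, 8.75), an X-linked gene best known from the testis whose peak also lies in the noncoding RNA gene Gm35727, and Usp34 (6 peaks, 8.14), which acts on axin in Wnt signalling, followed. The highest peak of Usp34 likewise had its summit 1020 bp ahead of the start site of its window, inside the annotated gene body. Usp13 had 3 peaks with a highest value of 7.59, Usp27x 1 peak with 7.5, and Usp30, which opposes mitophagy at the mitochondrial outer membrane, 3 peaks with 5.84. Between 4 and 5 lay Usp12 (2 peaks, 4.96), Usp10, a partner of G3bp1 (3 peaks, 4.94), Usp20 (1 peak, 4.74) and Usp47 (2 peaks, 4.67).

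At the low end of the USP genes with a peak in replicate 1 only was Usp21 (1 peak, 3.08). Below it lay Usp1, which acts on Fancd2 and PCNA in DNA repair (2 peaks, 2.81). Then came Usp5, which recycles free ubiquitin chains (1 peak, 2.56), and Usp37 (1 peak, 2.52). Lowest of these genes were the splicing factor Usp39 (1 peak, 2.15) and Usp32 (1 peak, 1.98). No list had a peak at the 16 remaining genes, Usp3, Usp7, Usp8, Usp9x, Usp9y, Usp11, Usp14, Usp16, Usp18, Usp19, Usp22, Usp28, Usp33, Usp40, Usp45 and Usp50. Among these are broadly used enzymes such as Usp7, which acts on Mdm2 and p53, Usp14 of the proteasome, Usp22 of the SAGA complex, Usp8 of the endosome and Usp9x. Usp9y, on the Y chromosome, and Usp18, which removes the ubiquitin-like modifier ISG15, had none either.

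By role the lists were small, and no difference between them was tested. A peak in both replicates, beside 16.1% of all protein-coding genes, was found for 7 of 18 genes of signalling, trafficking and the cytoskeleton, 3 of 8 of the cell cycle, nucleolus and nucleus, 4 of 13 of chromatin and DNA repair, 1 of 4 outside the deubiquitinase activity and 1 of 7 of the proteasome, free ubiquitin, mitochondria and endoplasmic reticulum. The last of these (14.3%) was near the share of all genes. In replicate 1, beside 41.3%, the counts in the same order were 14, 6, 7, 3 and 4. In replicate 2 each was the same as in both. The family held 16 targets, 18 genes in replicate 1 only and 16 without a peak, so its genes often differ whether or not they are paralogs. Whether paralogs differed more or less often than other USP genes was not tested. Some sets of paralogs differed and others were alike. Usp4 and Usp15 were targets and their relative Usp11 had no peak, Usp53 was a target and Usp54 was in replicate 1 only, Usp46 was a target and Usp12 was in replicate 1 only, and of the H2B deubiquitinases Usp51 was a target, Usp27x was in replicate 1 only and Usp22 had no peak. The same held for Usp2, a target, and Usp21, in replicate 1 only, and Usp20 and Usp25 had peaks in replicate 1 where Usp33 and Usp28 had none. Like each other were Usp36 and Usp42, both targets, Usp5 and Usp13, both in replicate 1 only, and the pairs Usp16 and Usp45 and Usp9x and Usp9y, with 0 peaks.

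The study describes m6A enrichment towards the end of target mRNAs, so the position of USP summits was measured in the 38 USP genes with a known strand, over summits inside exactly 1 protein-coding gene with a strand. In replicate 1, 29 of 59 USP summits (49.2%) fell in the last 10% of the gene body, beside 31.8% of the 14864 summits of all protein-coding genes, and 5 (8.47%) fell in the first 10%, beside 10.6%. In replicate 2 the last 10% held 7 of 14 (50%), beside 44.1% of 3575, but for peaks at least 4-fold enriched the direction turned, at 41.7%, beside 43.3%. By gene, 22 of the 26 USP genes with such a summit in replicate 1 (84.6%) had at least 1 in the last 10%, beside 50.9% of 6448 protein-coding genes, and 7 of 11 (63.6%) in replicate 2, beside 51.6% of 2582. A step of 10% is longer in a long gene, and measured in bases the USP summits were closer to the end than all summits in replicate 1 and farther in replicate 2. The median distance was 5138 bp, beside 6099 bp, in replicate 1 and 3114 bp, beside 2413 bp, in replicate 2, and 25.4% of USP summits, beside 26%, in replicate 1 and 28.6%, beside 44%, in replicate 2 were within 2000 bp of the end. Shared sites in USP genes with a strand were counted whether or not another gene covered them, so both sites of Usp49 are included here. Of these 16 shared sites, 5 (31.2%) were within 2000 bp of the end, beside 43.4% of the 3756 shared sites of all protein-coding genes with a strand. Within 10000 bp of the end were 13 (81.2%), beside 78%. The annotation used here has no exons, so a site could not be assigned to an exon, an intron, a coding part or an untranslated region.

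**Figure D5:**
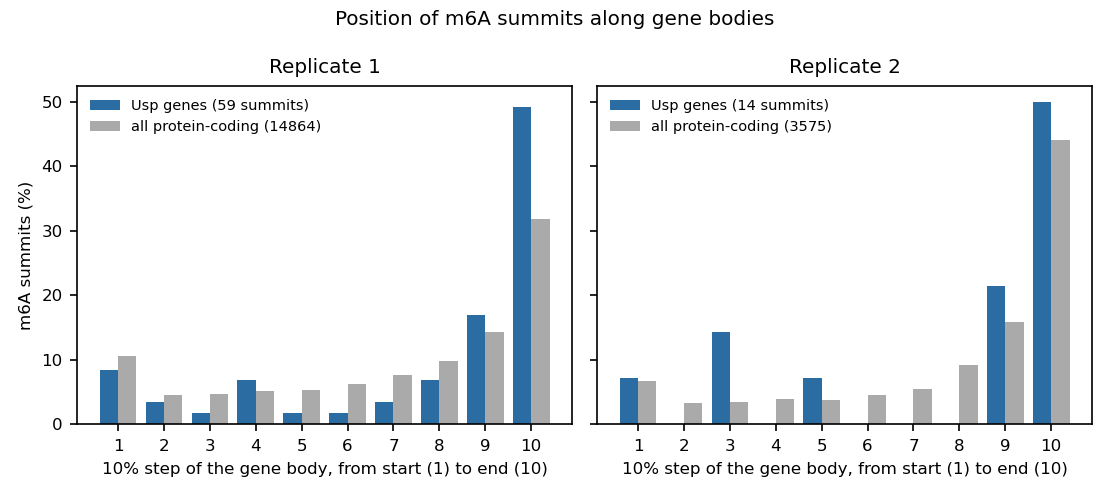
Percentage of m6A summits (vertical axis) in each 10% of the gene body from start to end (horizontal axis), for Usp genes and for all protein-coding genes, with replicate 1 in the left panel and replicate 2 in the right. The last 10% held 49.2% of Usp summits and 31.8% of all summits in replicate 1, and 50% and 44.1% in replicate 2, where the Usp bars rest on 14 summits and the share was 41.7% of Usp summits and 43.3% of all summits for peaks at least 4-fold enriched.

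USP genes were longer than most. Their gene bodies had a median of 50771 bp, beside 17146 bp for all protein-coding genes. Of the 24 USP genes between 27032 and 76560 bp, the middle 50% of the family, 16 (66.7%) had a peak in replicate 1 and 12 (50%) in both, against 50.7% and 19.2% of the 4863 protein-coding genes in that range. Of the 13 shorter USP genes 2 (15.4%) had one in both, against 13.9% of the 13756 shorter protein-coding genes, and of the 13 longer ones 2 (15.4%), against 21% of 3281. The part of gene length in the shares was not tested. Within the family the median length was 51422 bp for the 16 targets, 54357 bp for the 18 genes in replicate 1 only and 49774 bp for the 16 without a peak. Of the USP peaks, 25 of 85 in replicate 1 and 4 of 21 in replicate 2 were also within 500 bp of another gene.

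Other families of the ubiquitin system were counted in the same way. Of all protein-coding genes, 41.3% had a peak in replicate 1, 16.9% in replicate 2 and 16.1% in both. In replicate 1, 34 of 50 USP genes (68%) had a peak, against 27 (67.5%) of 40 genes listed as other deubiquitinases or their relatives. These 40 were all outside the symbol pattern, Cyld among them. They also include the 11 JAMM genes, of which only 1 had a peak in replicate 1. In both replicates, 16 USP genes (32%) had a peak, against 8 of these 40 (20%), and the counts in replicate 2 were the same. All 15 OTU genes had a peak in replicate 1 and 5 in both, namely Otub2, Otud1, Otud7a, Yod1 and Tnfaip3, while of the 11 JAMM metalloprotease genes, which include subunits of the proteasome, the signalosome and the eIF3 complex, only Mpnd had one, in replicate 1. In the other classes Josd1, Mindy1 and Cyld had a peak in both, and the UCH genes had 3 of 5 in replicate 1 and 0 in both. Of 16 genes for partners of USPs, 13 had a peak in replicate 1, beside 41.3% of all protein-coding genes, and 7 in both, beside 16.1%, namely Atxn7, Atxn7l1 and Atxn7l2, which are subunits or relatives of subunits of the SAGA deubiquitinase module, Dmwd, Gmps, Magel2 and G3bp1. On the ligase side, against the 32% of USP genes, 15 of 46 Klhl and Kbtbd genes (32.6%), 17 of 78 F-box genes (21.8%) and 17 of 80 Rnf genes (21.2%) had a peak in both, and 16, 18 and 18 of them had one in replicate 2.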

How the data were processed

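The m6A-RIP-seq peaks of the 2 WT immunoprecipitations were used, and the other 7 of 9 samples were not analysed here. The authors called peaks with MACS2 at default parameters for each immunoprecipitation against input. The submitters' processing notes also name Bowtie, SAMtools and mm10, with no versions. Each deposited peak has a fold enrichment (a ratio over input), a summit, a score, and a p-value and a q-value as −log10, and the deposited score and −log10 p were not used. With no counts deposited, depth and counting error are unknown, and no group was compared, so no test was run.

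Peaks, with coordinates counted from 1, were assigned to every RefSeq gene (GRCm38.p6, 49997 genes) within 500 bp. Peaks sharing at least 1 bp were called shared. Strand and start sites came from RefSeq promoter windows. USP genes and gene lists were matched by symbol (Usp6, on 1 list, was not matched). The USP genes and lists were chosen with earlier results of these data known. The rule was to name every USP gene, to give in full the 12 with shared peaks and the highest enrichment (by the lower of both replicates' highest values), and to give other families by counts. Part of the peaks of 1 gene, Usp24, is not reported here. The middle range of gene lengths was chosen after values were seen. Alternatives were other thresholds, distances, assignments and overlaps, a shortened replicate 1 list and single replicates. Overlap code was tested on simulated data. Scripts ran in Python 3.11.15 (pandas 2.3.3, numpy 2.4.6, matplotlib 3.10.9).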

Additional observations from a re-analysis of the deposited data

How the results depend on the processing

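The 16 USP genes with a peak in both replicates were the same 16 for peaks that overlap the gene body, within 2000 bp, assigned to the nearest protein-coding gene or placed by their summit. Of all protein-coding genes, 15.3% to 17.6% had a peak in both under these settings. With a −log10 q of at least 5, 14 of the 50 USP genes remained, without Usp44 and Usp46, beside 12.8% of all protein-coding genes. When peaks had to be 4-fold enriched, 11 of the 50 remained, beside 11.6% of all protein-coding genes. When replicate 1 was cut to as many peaks as replicate 2, 11 remained, beside 10.7%. Each time Usp4, Usp15, Usp38, Usp46 and Usp48 were lost. USP genes with overlapping peaks fell to 8 of the 50 at the 4-fold threshold, beside 9.99% of all protein-coding genes. With replicate 1 reduced they fell to 9 of the 50, beside 9.85%. With replicate 1 reduced, 18 of the 50 USP genes had a peak in it, beside 17.3% of all protein-coding genes. The median highest fold enrichment of these 18 was 8.15, beside 7.61. Leaving out replicate 1 gave 16 USP genes, beside 16.9% of all protein-coding genes. Leaving out replicate 2 gave 34, those of replicate 1 alone, beside 41.3%. For peaks at least 4-fold enriched, the share of USP summits in the last 10% in replicate 2 was 41.7%, beside 43.3%. No paired analysis was possible because only wild-type immunoprecipitations were analysed and no groups were compared. Motifs under the peaks were not run, since no genome sequence was used here.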

Other observations

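Of the 12 USP peaks of replicate 1 with a −log10 q of 100 or more, each in a different gene, 6 had a partner in replicate 2 (Usp42 at 220, Usp2 at 216, Usp35 at 146, Usp49 at 143, Usp36 at 125 and Usp53 at 102). The other 6 had none (Usp47 at 153, Usp31 at 148, Usp26 at 129, Usp25 at 122, Usp44 at 119 and Usp29 at 106). Over the whole list, 60.7% of the 2450 peaks at that level had a partner. At Usp31 and Usp44 a weaker peak of replicate 1 was the one found in replicate 2.

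The symbol pattern leaves out 7 related genes. Usp6nl, which encodes a GTPase-activating protein, Uspl1, which acts on SUMO, and Usp17lb, Usp17lc and Usp17le had a peak in replicate 1. Usp17la and Usp17ld had none, and 0 of the 7 had one in replicate 2. The shares of all protein-coding genes were 41.3% in replicate 1 and 16.9% in replicate 2. The Usp17-like genes are near-identical copies, and how the alignment placed reads among them is not stated, so their peaks are uncertain.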
